A study of Mus musculus with 6 samples.

Results

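The exostosin family of glycosyltransferases was followed through its 5 mouse genes, Ext1, Ext2, Extl1, Extl2 and Extl3, chosen by name from 909 named genes on a focused Affymetrix glycan array. Each gene was matched by the RefSeq accession in the probe set's identifier, and each had 1 probe set of 1246 in all. The arrays measured total liver RNA of male mice, 3 wildtype and labelled healthy, 3 diabetic, and the series title describes the diabetes as insulin-deficient. The labels used here give no strain, no age and no way in which diabetes was brought about. The study's question was whether glycosaminoglycan enzymes fall in diabetes and so bear on the turnover of lipids in plasma.

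Heparan sulfate is a linear sugar chain carried by proteoglycans of the cell surface and the matrix. It is built in the Golgi on a short linkage sugar, by adding N-acetylglucosamine and glucuronic acid in turn, and is then sulfated. Ext1 and Ext2 together form the polymerase that lengthens the chain; their loss underlies hereditary multiple exostoses, a disease of bony outgrowths that gave the family its name. Extl3 adds the first N-acetylglucosamine and so commits the linkage sugar to heparan sulfate. Extl2 can add an N-acetylhexosamine to a phosphorylated linkage sugar, which stops chain growth, and Extl1 has N-acetylglucosaminyltransferase activity and is less well understood. On liver cells heparan sulfate proteoglycans take part in clearing lipoprotein remnants.

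Expression values are on the log2 scale throughout, so a difference of 1 is a doubling. The table ran from 2.03 to 13.45, and the median of each array lay between 4.93 and 5.06. The array wildtype 2 stood apart: it was the highest of the 6 arrays for 315 probe sets, or 25.3% of 1246, where the other arrays were highest for 12.9% to 20.3%, and 40 of its probe sets lay over 0.5 above or below every other array, against 1 to 21 on the others. Of 6 hepatocyte markers 6 lay above the median probe set. Of the markers of other liver cells, 3 of 5 for macrophages, 1 of 6 for endothelium and 3 of 6 for stellate cells were measured, with 5 of these 7 above the median probe set, and those of lymphocytes and cholangiocytes were not analysed here.

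For none of the 5 exostosin genes did the difference between diabetic and wildtype liver pass the test against the spread of the arrays. Ext1 had a higher mean in diabetic liver and Ext2, Extl1, Extl2 and Extl3 had lower ones, with differences from -0.28 to 0.10. The count past the limma threshold (adjusted p below 0.05 over all probe sets) was 0 of 5, beside 4 of 1246 in the whole table, or 0.321%. At an unadjusted limma p under 0.05 the count was 0 of 5, beside 37 of 1246, or 2.97%. The groups overlapped for every member, while 98 of 1246 probe sets, or 7.87%, had groups without overlap. A limma fit that blocked on the replicate number called 0 of 5 members and 0 of 1246 probe sets.

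Ext1, a subunit of the polymerase, had values of 7.96, 8.39 and 8.10 on wildtype arrays 1, 2 and 3. On diabetic arrays 1, 2 and 3 it had 8.28, 8.21 and 8.26. All diabetic values lay above wildtype 1 and 3 and below wildtype 2. The diabetic mean was 8.25 ± 0.04 and the wildtype mean 8.15 ± 0.22 (SD, n = 3 each). The difference was 0.10 (SE 0.12, 95% confidence interval -0.19 to 0.39, limma adjusted p = 0.966), or a ratio of 1.07 with an interval of 0.876 to 1.31. Without wildtype 2 it was 0.22, with an interval from -0.0096 to 0.45 (limma unadjusted p = 0.0573, adjusted p = 0.995), and without wildtype 1 it was 0.00495.

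Ext2, the partner subunit, which Ext1 needs in order to work as a polymerase, had values of 7.97, 8.50 and 7.74 on the wildtype arrays. The diabetic arrays gave 7.97, 7.84 and 7.91. Wildtype 2 was the highest of the 6 arrays and wildtype 3 the lowest, so the diabetic values lay inside the wildtype range. The diabetic mean was 7.91 ± 0.07 and the wildtype mean 8.07 ± 0.39 (SD, n = 3 each). The difference was -0.16 (SE 0.19, 95% confidence interval -0.63 to 0.30, limma adjusted p = 0.963), a ratio of 0.893 with an interval of 0.648 to 1.23. Its sign rested on wildtype 2: without that array the difference was 0.053, and without wildtype 3 it was -0.33.

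Extl3, which starts the heparan sulfate chain, was read by a probe set whose suffix marks probes shared by several transcripts. It had 7.30, 7.80 and 7.17 on the wildtype arrays and 7.41, 7.14 and 7.62 on the diabetic arrays. Both groups spread widely, with wildtype 2 the highest array and diabetic 2 the lowest. The diabetic mean was 7.39 ± 0.24 and the wildtype mean 7.43 ± 0.33 (SD, n = 3 each). The difference was -0.04 (SE 0.20, 95% confidence interval -0.51 to 0.44, limma adjusted p = 0.990). It was 0.15 without wildtype 2 and 0.085 without diabetic 2.

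Extl2, which can cap a growing linkage sugar, varied least of the family. It had 7.53, 7.52 and 7.42 on the wildtype arrays and 7.52, 7.46 and 7.44 on the diabetic arrays. The span from the lowest to the highest array was 0.114, a span that only 2.2% of all probe sets matched or undercut; the median span was 0.377. The diabetic mean was 7.47 ± 0.05 and the wildtype mean 7.49 ± 0.06 (SD, n = 3 each). The difference was -0.019 (SE 0.076, 95% confidence interval -0.20 to 0.16, limma adjusted p = 0.990), a ratio of 0.987 with an interval of 0.870 to 1.12. This was the narrowest interval of the 5 members. The difference was 0.0017 without wildtype 1.

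Extl1 had 5.86, 6.65 and 5.84 on the wildtype arrays and 5.63, 5.89 and 5.98 on the diabetic arrays. Wildtype 2 stood above all others, and the other wildtype values lay among the diabetic ones. The diabetic mean was 5.83 ± 0.18 and the wildtype mean 6.12 ± 0.46 (SD, n = 3 each). The difference was -0.28 (SE 0.24, 95% confidence interval -0.85 to 0.29, limma adjusted p = 0.928), the largest in size among the members, with a ratio of 0.823 and an interval of 0.554 to 1.22. Without wildtype 2 it was -0.014. None of the 5 intervals reached down to -1, and those of Ext1 and Extl2 did not reach -0.5; that of Extl1 was the widest.

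**Figure D1:**
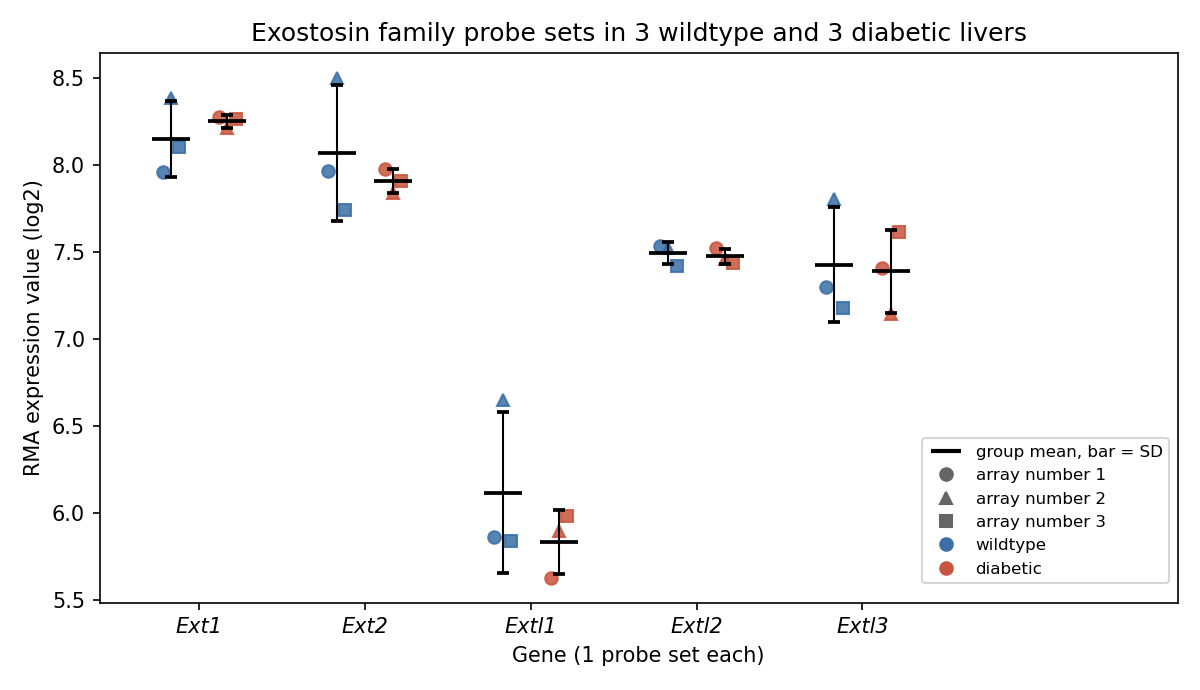
RMA expression values (log2) of the 5 exostosin genes, with blue points for the wildtype and red points for the diabetic arrays, a marker shape for each replicate number, and black bars for the group mean ± SD (n = 3). Wildtype 2, the blue triangle, is the highest array for Ext1, Ext2, Extl1 and Extl3, while the Extl2 arrays span 0.114.

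All 5 genes gave signals in the upper part of the table. By mean signal Ext1 lay at the percentile 86.4 of all probe sets, Ext2 at 84.7, Extl2 at 80.0, Extl3 at 79.0 and Extl1 at 66.9. Probe sets differ in how strongly they bind their transcript, and the values carry no detection call, so this order of signals is not an order of transcript amounts. The SD was larger in wildtype than in diabetic liver for 5 of 5 members, beside 57.2% of all probe sets. For each member except Extl2, wildtype 2 was the highest wildtype value.

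Wildtype 2 was the highest of the 6 arrays for 4 of 5 members, beside 25.3% of all probe sets. It exceeded the mean of the other 5 arrays by 0.81 for Extl1, 0.62 for Ext2, 0.47 for Extl3 and 0.23 for Ext1, and by 0.050 for Extl2. Over all probe sets the median of this excess was 0.024. Wildtype 2 was also the highest array for 4 of 6 hepatocyte markers, 4 of 6 genes of the breakdown list, 4 of 9 heparan sulfate modification enzymes, 4 of 10 genes of the UDP-sugar donors, 2 of 5 linkage enzymes and 4 of 12 core proteins, and for 0 of 5 enzymes of the chondroitin branch. The median difference over the 5 genes was -0.038, beside 0.0020 over all probe sets, of which 616, or 49.4%, had lower means in diabetic liver. Without wildtype 2 the median over the family was 0.053, with higher means for Ext1, Ext2 and Extl3 and values of -0.014 for Extl1 and -0.00255 for Extl2.

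**Figure D2:**
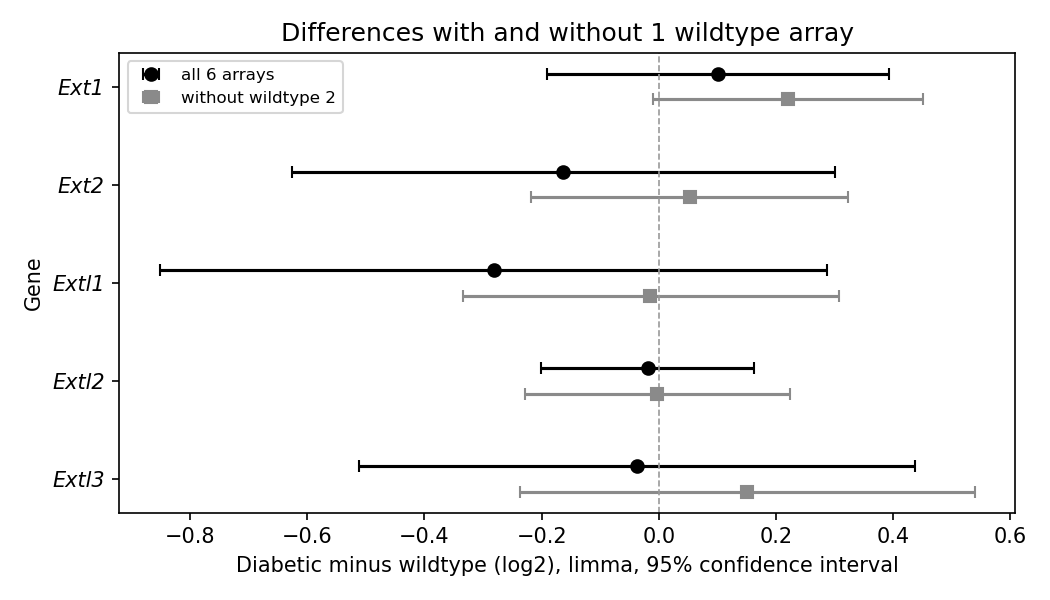
Difference between diabetic and wildtype liver (log2) for each exostosin gene, with 95% confidence intervals from limma, from all 6 arrays (black circles) and without wildtype 2 (grey squares). All intervals include 0 in both fits, and the values for Ext2 and Extl3 change sign, from -0.16 to 0.053 and from -0.04 to 0.15.

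Because Ext1 and Ext2 work as one complex, their difference was also taken on each array. This cancels only a shift common to both probe sets of an array. Wildtype 2 exceeded the mean of the other arrays by 0.62 for Ext2 and 0.23 for Ext1. Part of that excess therefore stays in the difference. Ext1 minus Ext2 was -0.0106, -0.112 and 0.363 on wildtype arrays 1, 2 and 3, and 0.305, 0.372 and 0.355 on the diabetic arrays. The 3 diabetic values lay within 0.068 of each other, and wildtype 3 fell among them, while wildtype 1 and 2 were lower than all of them. The diabetic mean was 0.344 ± 0.035 and the wildtype mean 0.080 ± 0.25 (SD, n = 3 each), a shift of 0.26 towards Ext1. A two-sided exact permutation test gave p = 0.3, where the smallest p this design allows is 0.1. Within the same-numbered pairs the exact sign-flip p was 0.5, with 0.25 as the smallest possible. The shift was 0.405 without wildtype 3 and 0.17 without wildtype 2. These are relative signals of a pair of probe sets; a change in their difference does not say which of the genes moved.

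**Figure D3:**
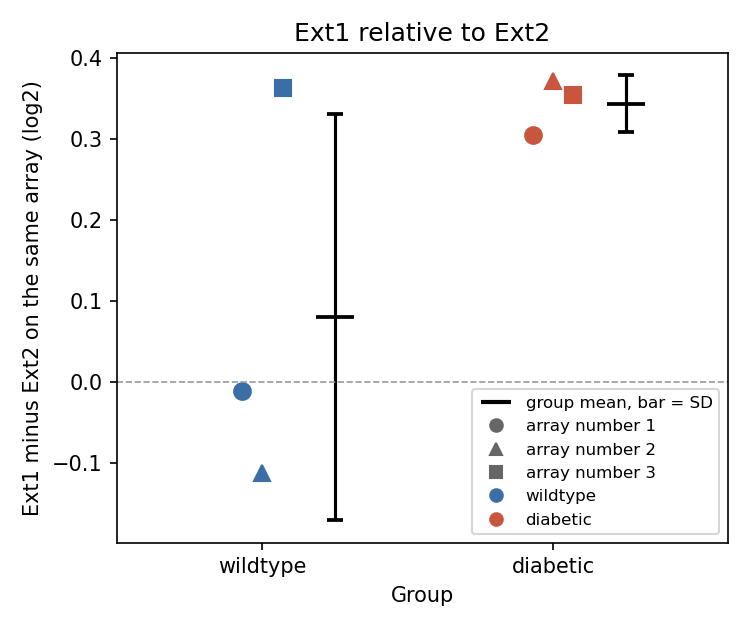
Ext1 minus Ext2 on the same array (log2) for 3 wildtype and 3 diabetic livers, with a marker shape for each replicate number and black bars for the group mean ± SD (n = 3). The diabetic arrays sit between 0.305 and 0.372, wildtype 3 is at 0.363 and the other wildtype arrays are at -0.0106 and -0.112.

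Across the 6 arrays the members' values were compared in 10 pairs, over the arrays of both groups. Pearson's r lay between 0.053 and 0.855 and was above 0 for 10 of 10 pairs; the exact permutation p-values, adjusted over the pairs, ran from 0.321 to 0.906. Ext2 and Extl1 had the highest r, 0.855 (exact permutation p = 0.225), with a Spearman's rho of 0.257 (exact permutation p = 0.658). Without the 2 arrays farthest from the median of Ext2 their r was -0.59, and without wildtype 2 alone it was -0.32, so the relation rested on that array. Ext2 and Extl3 gave r = 0.828 (exact permutation p = 0.0472, adjusted p = 0.321) and rho = 0.771 (exact permutation p = 0.103, adjusted p = 0.438), and r was 0.378 without the 2 farthest arrays and 0.559 without wildtype 2. Ext1 and Ext2, the subunits of the polymerase, gave r = 0.587 (exact permutation p = 0.136) and rho = 0.657 (exact permutation p = 0.175). That r was 0.97 over the 4 arrays left without those farthest from the median of Ext1, and 0.040 without wildtype 2 alone. Leaving out wildtype 2 lowered r for 9 of 10 pairs and left 6 of 10 above 0.

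The probe sets most like each member over the 6 arrays, among 958 of other named genes, are given as a description. Of the 958, 7 had an r above 0.9 for Ext1, 23 for Ext2, 24 for Extl1, 12 for Extl2 and 15 for Extl3. Shared regulation was not tested. Ext1 was closest to Slc35d2, a Golgi transporter of nucleotide sugars that carries UDP-N-acetylglucosamine (r = 0.967), then to Pmm2, a phosphomannomutase (0.943), and to the NK cell receptor gene Klra10 (0.940), whose probe set was the dimmest of the table. Ext2 was closest to Xylt2, which attaches the first xylose of the linkage sugar (r = 0.973), and then to Gbf1 and Sar1a, which act in vesicle traffic between the endoplasmic reticulum and the Golgi (0.971 and 0.969). Extl1 was closest to Il15 (0.975), Igfbp4 and Arsa (0.969 each). Extl3 was closest to Manba, a lysosomal mannosidase (0.981), Areg (0.980) and Hyal2 (0.979). All 12 of these were highest on wildtype 2, as were Ext1, Ext2, Extl1 and Extl3. Because they were picked by likeness to those members, this was largely set by the choice. Il15 and Areg were dim as well, at the percentiles 29.5 and 16.2. Extl2 was closest to the nucleotide sugar transporters Slc35b4 (0.985) and Slc35a1 (0.976) and to Galt (0.955). Slc35a1 was also highest on wildtype 2, while Slc35b4 and Galt were not.

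The sequence before the transcription start is shown for the 3 members with a window in the promoter table used here. These are Ext2 and Extl1, which like Ext1 and Extl3 were highest on wildtype 2, and Extl2, which had nearly the same value on every array. Whether the sequences bear on the array values was not tested. Each is the 250 bases before a RefSeq start, of assembly GRCm38.p6, printed 5′ to 3′ on the gene's own strand, with the letters CACGTG in capitals. CACGTG is the core of the E-box that basic helix-loop-helix factors such as Usf1 can bind. The windows are chr2:93822569-93822818 (minus strand) for Ext2, chr4:134372548-134372797 (minus strand) for Extl1, and chr3:116007199-116007448 and chr3:116008047-116008296 (plus strand) for the first and the second start of Extl2.
Ext2: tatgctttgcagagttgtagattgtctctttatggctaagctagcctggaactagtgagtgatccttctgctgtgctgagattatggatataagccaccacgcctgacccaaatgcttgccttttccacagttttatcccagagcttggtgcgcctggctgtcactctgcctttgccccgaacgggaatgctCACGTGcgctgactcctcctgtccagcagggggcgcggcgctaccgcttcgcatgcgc
Extl1: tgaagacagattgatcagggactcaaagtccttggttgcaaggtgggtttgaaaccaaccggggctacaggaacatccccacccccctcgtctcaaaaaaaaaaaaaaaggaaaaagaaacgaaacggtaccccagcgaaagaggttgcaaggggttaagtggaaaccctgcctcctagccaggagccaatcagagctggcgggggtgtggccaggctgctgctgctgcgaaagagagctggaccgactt
Extl2, first start: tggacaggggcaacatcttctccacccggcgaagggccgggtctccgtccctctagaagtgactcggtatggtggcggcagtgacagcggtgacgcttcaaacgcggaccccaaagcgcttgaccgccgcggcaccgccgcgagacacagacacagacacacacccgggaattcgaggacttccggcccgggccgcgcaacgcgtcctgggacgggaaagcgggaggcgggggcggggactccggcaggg
Extl2, second start: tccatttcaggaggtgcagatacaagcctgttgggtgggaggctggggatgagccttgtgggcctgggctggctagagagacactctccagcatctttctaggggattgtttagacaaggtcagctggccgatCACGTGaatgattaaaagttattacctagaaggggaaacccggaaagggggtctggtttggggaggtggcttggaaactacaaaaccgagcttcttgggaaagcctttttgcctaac

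CACGTG, which reads the same on both strands, was found 1 time in the Ext2 window, beginning 58 bases before the start, and 1 time at the second start of Extl2, 117 bases before it. It occurred in 6.02% of 32851 such windows. The GC box GGGCGG, searched on both strands, was found 1 time at the first start of Extl2 and in 32.7% of all windows. The CCAAT box, whose letters are its name, searched on both strands, was found 1 time in the Extl1 window and in 33.8% of all windows. The TATA box letters TATAAA, searched on both strands, were in none of the 4 windows and in 12.4% of all windows. No window of these genes held more than 1 of these motifs, so none overlapped. The GC content was 54.8% for Ext2, 53.2% for Extl1, and 68.8% and 51.6% for the starts of Extl2, beside a median of 52.4% over all windows. The first start of Extl2 held 30 CG dinucleotides, against a median of 6, and Ext2 held 12. Promoter windows of Ext1 and Extl3 were not used here.

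The other steps of heparan sulfate metabolism, and the chondroitin branch beside them, were read from 6 gene lists. Of their 47 measured genes 0 passed the limma threshold, beside 4 of 1246 probe sets, or 0.321%, in the whole table. With so few calls in all, this count says little about the lists. Many of the signs rested on single arrays, so values without an array are given beside them. Of the linkage enzymes, which make the sugar that Extl3 extends, 5 of 7 were measured, with 0 higher and 5 lower means in diabetic liver, 0 called and a median difference of -0.13. Xylt1 differed by -0.16, Xylt2 by -0.087 and B4galt7 by -0.15. Without wildtype 2 the list had 1 higher and 4 lower means, with Xylt2 at 0.165 and B4galt7 at -0.067. Without diabetic 3 it had 2 higher and 3 lower means, a median of -0.066, and Xylt1 at -0.083. Among the enzymes of the chondroitin branch, which use the same linkage sugar, 5 of 6 were measured, with 2 higher and 3 lower means, 0 called and a median of -0.017. With 1 array left out that median ran from -0.114 without wildtype 3 to 0.0026 without wildtype 1. Csgalnact1, Csgalnact2 and Chsy1 differed by 0.0034, -0.017 and -0.26; Chsy1 was at -0.049 without diabetic 1, and the other 2 changed sign without single arrays.

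The enzymes listed here as modifying the chain after the exostosins had 7 higher and 2 lower means among 9 of 9 measured, with 0 called and a median of 0.023. That median was 0.095 without wildtype 2 and -0.030 without wildtype 3, where 4 means were higher and 5 lower. The N-deacetylase/sulfotransferases Ndst1, Ndst2 and Ndst3 differed by 0.013, 0.023 and 0.026. Without wildtype 2 these were 0.288, 0.181 and 0.013, and without wildtype 3 they were -0.241, -0.131 and 0.016. Only 5 of the 9 genes lay above the median probe set, and Ndst3 lay at the percentile 18.5. The count of higher means rests in part on such dim probe sets. Further sulfotransferases and the Sulf sulfatases were not in this list. The largest difference of the list, singled out after its value was seen, was that of the epimerase Glce, at 0.43 (95% confidence interval 0.026 to 0.83, limma unadjusted p = 0.0403, adjusted p = 0.928), and it lay between 0.335 and 0.578 with 1 array left out.

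The genes that supply the UDP-sugar donors had 4 higher and 6 lower means among 10 of 10 measured, with 0 called and a median of -0.035, which ran from -0.092 without wildtype 3 to 0.082 without diabetic 3. Ugp2 and Ugdh make the precursor of UDP-glucuronic acid and then that donor itself. Ugp2 differed by 0.77 (limma unadjusted p = 0.00298, adjusted p = 0.619). Its groups did not overlap, as for 98 of 1246 probe sets, or 7.87%. The linkage, modification and core protein lists also held 1 such gene each. With single arrays left out, Ugp2 ran from 0.661 without diabetic 1 to 0.916 without wildtype 1. Ugdh differed by 0.53 (limma adjusted p = 0.928). Ugdh was at 0.268 without wildtype 2. Gfpt1 of the hexosamine pathway differed by -0.055, and by 0.027 without diabetic 3. The core proteins that carry the chains had 4 higher and 8 lower means among 12 of 13 measured, with 0 called and a median of -0.040, which was 0.0052 without wildtype 2 and -0.077 without wildtype 3. Sdc1, Sdc2 and Sdc3 differed by 0.44, 0.086 and -0.036. Without wildtype 2 they were at 0.671, 0.158 and -0.048, and without wildtype 3 Sdc2 and Sdc3 changed sign, to -0.058 and 0.079.

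Of the genes listed under breakdown of the chain, 6 of 9 were measured, with 2 higher and 4 lower means, 0 called and a median of -0.078. That median was 0.033 without wildtype 2 and -0.211 without wildtype 3. Not every gene of this list need encode an enzyme that cuts the chain. Hpse, Hpse2 and Idua differed by 0.12, -0.13 and -0.48. Hpse was at -0.00094 without wildtype 1, Hpse2 at -0.069 without diabetic 3, and Idua ran from -0.869 without wildtype 3 to -0.259 without wildtype 2. The genes of the lists that were not measured by a matched probe set were not analysed here.

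**Figure D4:**
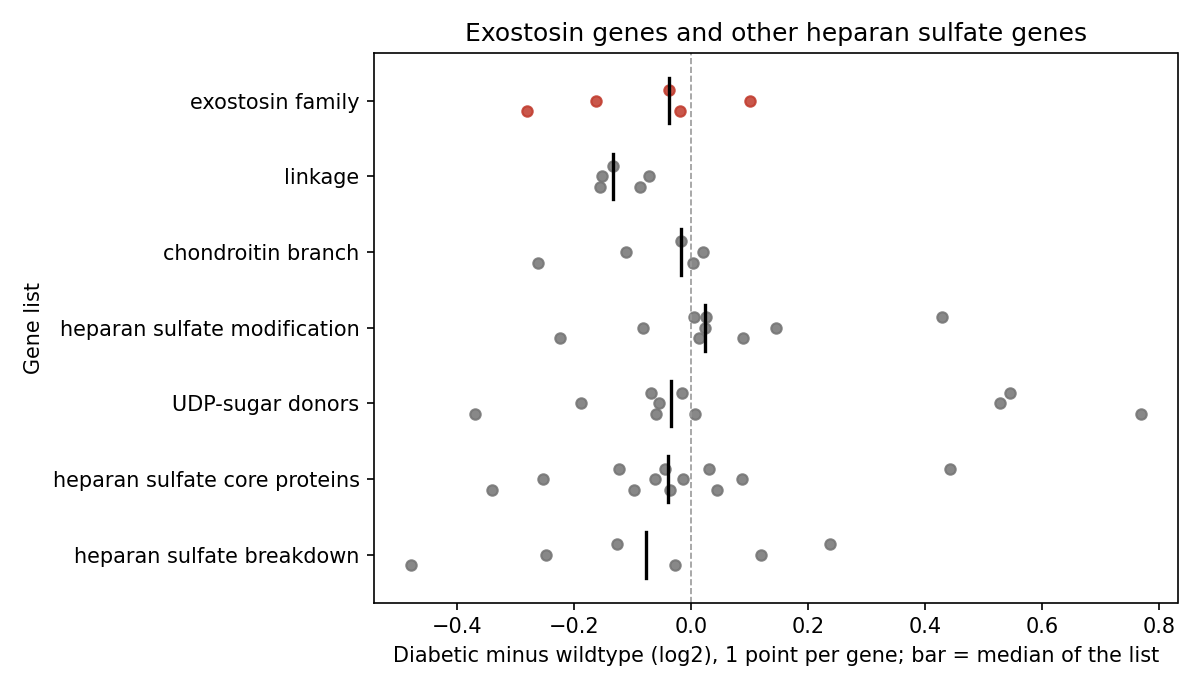
Difference between diabetic and wildtype liver (log2), 1 point per gene, for the exostosin family (red) and 6 other lists of heparan sulfate and chondroitin genes (grey), with a black bar at each list's median. The exostosin genes lie between -0.28 and 0.10, with a median of -0.038, inside the range of the UDP-sugar donors, of the core proteins and of the breakdown list.

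The hepatocyte markers had 3 higher and 3 lower means in diabetic liver, and 1 of 6 was called, beside 0.321% of all probe sets. Mbl2, a plasma lectin made by hepatocytes, differed by 1.03 (limma adjusted p = 0.0412); in the replicate block fit its limma adjusted p was 0.142, and of the fits with 1 array left out only that without wildtype 3 called it. Igfals differed by -0.61 (limma unadjusted p = 0.0126, adjusted p = 0.928) and Mbl1 by 0.27 (limma unadjusted p = 0.0493, adjusted p = 0.928), while Asgr1, Asgr2 and Igf1 differed by -0.0033, 0.017 and -0.16. Of the markers of other liver cells, 3 of 3 measured macrophage markers had higher means in diabetic liver (median difference 0.14), but 3 of 3 had lower ones without diabetic 3 (median -0.14). Diabetic 3 gave 7.50 for Csf1r, where the other diabetic arrays gave 6.23 and 6.28. Of the stellate markers 3 of 3 had lower means (median -0.21); without wildtype 3 Dcn was higher, at 0.121, and the median was -0.024. Pecam1 of the endothelium differed by 0.025, and by -0.104 without diabetic 3. Of these 7 markers of other cells 0 passed the limma threshold, beside 0.321% of all probe sets. Wildtype 2 was the highest array for 0 of the 7, beside 25.3% of all probe sets. The summed values ran from 15.93 to 17.08 in wildtype and from 15.75 to 18.71 in diabetic liver for the macrophage markers, and from 16.31 to 18.23 and from 15.79 to 16.64 for the stellate markers. The part of any of these cells in the exostosin values was not tested. In whole liver, fewer cells of a type and less RNA per cell cannot be told apart.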

How the data were processed

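Total liver RNA was hybridised as biotin-labelled cRNA to 1 array per sample, per the labels' protocols. The log2 values in the deposited table were made by the authors with RMA, per the submitters' processing notes. RMA removes background, brings the arrays to one distribution and combines the probes of a probe set, so a shift common to the whole array before that step cannot be seen. In the deposited table the array medians still ran from 4.93 on wildtype 1 to 5.06 on wildtype 2. The log2 scale was judged from the range of the values. For RMA's version and settings, and for the annotation, the entry is: not given in the sources used here. No detection call was used.

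Of 1246 probe sets, 984 carried a RefSeq accession and 963 were named through the RefSeq gene table of GRCm38.p6, used for names only. All probe sets were fitted with limma 3.58.1 (lmFit, eBayes) in R 4.3.3, diabetic minus wildtype, with Benjamini-Hochberg adjustment over all of them with calls below 0.05. Residual degrees of freedom were 4 and prior ones 2.44; the script was tested on simulated data. A gene of the lists with several probe sets was represented by the one with the highest mean over the 6 arrays. Precision is limited by the number of arrays, with a median SE of 0.112 per difference. The labels do not state that each array came from a separate animal, and p-values otherwise measure only the spread between these samples.

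Deviations from the group means correlated at 0.397, 0.138 and 0.162 between arrays numbered 1, 2 and 3. Correlations between arrays of different number were not computed, so these values do not show that same-numbered arrays belong together. A blocked fit treated same-numbered arrays as pairs. What a number stands for is not in the labels. Alternatives were a median shift, quantile normalization, a filter on dim probe sets, eBayes with trend and robust, array weights, the replicate block, an ordinary linear model, a threshold of 0.10 and leaving out each array. The family and the lists were chosen with earlier results of these data known. The text names all 5 members, the first 3 measured genes of each list, the cell type markers, Glce, which was added after its value was seen, and the 3 probe sets most like each member by Pearson's r. Promoter sequences are from RefSeq (GRCm38.p6), through a table in which 3 of the 5 genes were matched. Leaving out each array for the gene lists was added after seeing the data.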

Additional observations from a re-analysis of the deposited data

How the results depend on the processing

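The count of exostosin probe sets past the threshold was 0 in every refit and at the 0.10 threshold, and over the 65 refitted member differences (13 per gene) the limma adjusted p ran from 0.777 to 0.999. The whole table then held only between 0 and 4 calls, so this count says little about stability. With 1 array left out, Ext2 ran from -0.33 (without wildtype 3) to 0.053 (without wildtype 2), Extl2 from -0.055 (without wildtype 3) to 0.0017 (without wildtype 1), and Extl3 from -0.16 (without wildtype 3) to 0.15 (without wildtype 2), with 0.085 without diabetic 2; these 4 values above 0 reversed the direction, and no reversal occurred under another alternative. Ext1 ran from 0.00495 to 0.22 and Extl1 from -0.42 to -0.014 and kept their signs. The family median ran from -0.16 to 0.053 and was -0.031 after the median shift and -0.047 after quantile normalization. The Ext1 minus Ext2 shift stayed between 0.168 and 0.405, with an exact permutation p from 0.2 to 0.6. With 1 array left out that test compares 2 arrays with 3, and its smallest possible p is then 0.2, the value reached without wildtype 3. The replicate block left every member uncalled. Over all probe sets, the count of 4 fell to 0 in the ordinary linear model, in the trended robust eBayes fit and in the replicate block fit, and to 0 or 1 with 1 array left out; apart from the smaller number of arrays, the cause was not tested. The alternative of using a gene's other probe set was not run, because each member has 1. Without detection calls, signal over background limits what the dimmer probe sets can show.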
